A study of Mus musculus with 2 samples.

Results

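The cells described here are non-cycling, *Myh11*-low aortic vascular smooth muscle cells (VSMCs) in which the mRNA of fibroblast growth factor 18 (*Fgf18*) was detected. The cells were chosen by their UMI counts (unique molecular identifiers, so that mRNA molecules and not reads are counted): at least 1 UMI of *Fgf18*, at most 1 UMI of *Myh11* (smooth muscle myosin heavy chain, a marker of contractile cells), fewer than 3 UMIs of *Mki67*, *Top2a* and *Cenpf* together (3 genes of cycling cells), and at most 1 UMI of *Sox9* (a transcription factor of cartilage). Of 11690 cells, 1632 met the rule (13.96%), and these 1632 cells are called the members below. A barcode counted as a cell from 300 genes and 3000 UMIs on, if mitochondrial UMIs were below 20%.

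The study compared contractile, proliferating and modulated smooth muscle cells (cSMCs, pSMCs and mSMCs) in primary culture. Both libraries are of 1 condition: VSMCs of wild-type C57BL/6N mice, pooled from several thoracic aortae per preparation, grown for 5 days in medium with serum without further treatment, and captured by the 10x Genomics 3′ v3 method. The age of these mice is not given in the sources used here. The study reports male and female mice for its experiments in general. Enzymatic dispersion of whole aortae also releases endothelial and adventitial cells, and the cells were not sorted. Replicate 1 held 4866 cells with a median of 22234.5 UMIs and replicate 2 held 6824 cells with a median of 16310 UMIs. Replication is by library throughout (n = 2), and nothing says which animals went into which library. They stood apart in sex-linked RNA. In the matched members of replicate 1 *Ddx3y*, a Y-linked gene, was at 89.1 CPM (UMIs of a gene per 1000000 UMIs) and *Xist*, made from the inactive X chromosome, at 0.0459 CPM, whereas in those of replicate 2 *Xist* was at 486.1 CPM and the 4 Y-linked genes measured had no UMI. Sex and library therefore cannot be told apart, and sets of cells are compared within a library.

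FGF18 is a secreted ligand of the FGF receptors and is best known from skeletal and lung development, where it acts on chondrocytes, osteoblasts and mesenchyme. FGF receptors signal through the ERK cascade, which induces its own inhibitors. Smooth muscle cells in culture lose contractile proteins and gain matrix production and mobility, a change known as phenotypic modulation. The members were proposed as a state of modulated cells that is marked, beside *Fgf18*, by *Dkk2* (a secreted regulator of Wnt signaling), *Thbs1* (thrombospondin-1, a matricellular glycoprotein) and *Thy1* (the surface protein CD90 of mesenchymal cells). On mouse build GRCm38, *Fgf18* lies on the minus strand of chromosome 11 (33117430 to 33147400), *Dkk2* on chromosome 3 (132085292 to 132180304), *Thbs1* on chromosome 2 (118111876 to 118127133) and *Thy1* on chromosome 9 (44043384 to 44048579), the latter 3 on the plus strand.

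Most members came from replicate 1. In replicate 1, 985 of 4866 cells were members (20.2%, exact 95% binomial interval 19.1% to 21.4%), and in replicate 2 it was 647 of 6824 (9.48%, 8.80% to 10.2%), so that the mean over the libraries was 14.9% ± 7.61 (SD, n = 2). Intervals of this kind cover counting error only. Replicate 1 gave 60.4% of all members. Of 9551 cells with at most 1 *Myh11* UMI, 6578 were not cycling, and 2002 of these had *Fgf18*. The limit on *Sox9* then removed 370. The median UMI count of members was 20838 in replicate 1 and 15027 in replicate 2, close to that of their libraries. The libraries shared 9 cell barcodes among all cells and 0 among members.

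Many members rest on a single *Fgf18* molecule. In replicate 1, 315 members had 1 UMI, 167 had 2 and 503 had 3 or more, with a highest count of 40. In replicate 2 the counts were 285, 129 and 233, with a highest count of 17. The *Fgf18* level of the members, which the rule sets, was 168.7 CPM and 157.4 CPM in replicates 1 and 2.

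*Fgf18* was not limited to modulated cells in replicate 1. Among contractile, non-cycling cells (at least 5 *Myh11* UMIs), 48.1% had a UMI of *Fgf18* in replicate 1 (exact interval 42.2% to 54.0%) and 13.4% in replicate 2 (10.6% to 16.6%). The share among *Myh11*-low, non-cycling cells with at most 1 *Sox9* UMI, from which the members come, was 47.1% (44.9% to 49.3%) and 23.5% (21.9% to 25.1%). The intervals of these classes thus overlapped in replicate 1 and did not in replicate 2. In the corresponding cells with at least 2 *Sox9* UMIs the share was 46.3% and 14.8%, and in *Myh11*-low cycling cells it was 39.4% and 18.4%. Endothelial cells (ECs, at least 3 UMIs of *Pecam1* and *Cdh5* together), which served as the background for free RNA, had 9.71% (4.75% to 17.1%) and 2.80% (0.767% to 7.01%) at median depths of 14523 and 10223 UMIs. The median depth of the class that holds the members was 18836 and 13452 UMIs. After every cell was thinned to 3000 UMIs, the share was 18.3% and 9.17% in that class, 19.6% and 3.70% in contractile cells and 2.56% and 0.382% in ECs. *Fgf18* made up 32.2 and 13.9 CPM of the free RNA, taken from barcodes with 1 to 100 UMIs. How many members with 1 UMI carry it from free RNA was not tested.

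**Figure D1:**
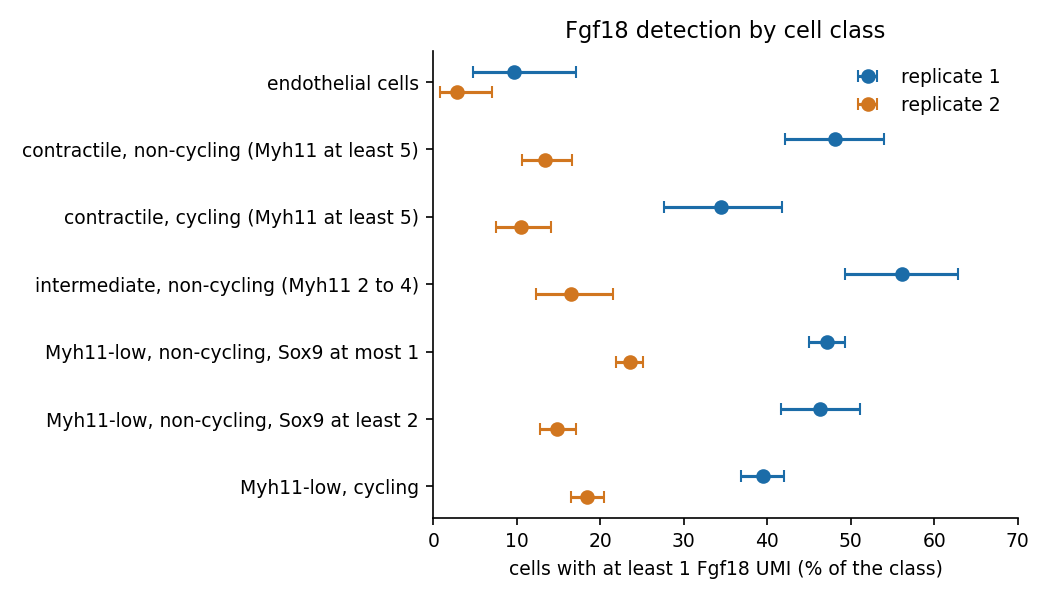
Share of cells with at least 1 *Fgf18* UMI (%, horizontal axis) in 7 cell classes of replicate 1 (blue) and replicate 2 (orange), with exact 95% binomial intervals. In replicate 1 the contractile, non-cycling class (48.1%) lies beside the *Myh11*-low class that holds the members (47.1%), in replicate 2 it lies lower (13.4% against 23.5%), and ECs are lowest in both.

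To describe what else these cells express, each member was matched within its library to a non-cycling, *Myh11*-low cell without *Fgf18* of nearly the same total UMI count. All 647 members of replicate 2 and 950 of 985 members of replicate 1 found a partner. The 35 without one had 34845 to 72351 UMIs. UMIs were summed per set and library and tested with edgeR on 12711 genes with the library as a block, leaving out the 6 genes of the rule. At an adjusted p (Benjamini-Hochberg) under 0.05, 570 genes were higher in members (4.48% of those tested) and 485 were lower (3.82%), and 1054 of the 1055 had the same direction in both libraries. The median log2 fold change of all genes was 0.0004. Without the library block, 0 genes passed in either direction, with 523 at an unadjusted p under 0.05 (edgeR), and DESeq2 with the block called 177 higher and 121 lower. Both sets of a library share 1 culture, and these p-values measure how alike the difference between the sets was in the 2 libraries, and not the spread between animals.

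The partners were not all smooth muscle cells. *Myh11*-low cells without *Fgf18* include ECs: 36 and 23 of the partners in replicates 1 and 2 met the EC threshold, against 3 and 1 of the members. All 8 genes of an EC list were lower in members, with a median log2 fold change of -4.71. *Pecam1*, an adhesion molecule of ECs, was at 0.735 and 0.727 CPM in members against 28.5 and 21.4 CPM in partners. The list summed to 11.8 and 8.81 CPM in members and to 153.2 and 117.6 CPM in partners, its most abundant gene in members was *Egfl7*, and none of its genes was at 0. The comparison was therefore repeated without ECs in either set. It gave 298 higher genes (2.37% of 12563) and 137 lower genes (1.09%), of which 292 and 135 had also passed with ECs. Since partners may carry any amount of *Sox9*, a further comparison held partners without ECs to at most 1 *Sox9* UMI, and 446 genes were higher (3.59% of 12434) and 253 lower (2.03%). Members had 16.3% and 17.5% of cells with *Sox9* by the rule, against 37.7% and 49.6% of partners. Values below are from the comparison with ECs unless said otherwise, and a gene's result without ECs is given where it differs.

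Of the 3 proposed markers, *Thbs1* and *Dkk2* were higher in members of both libraries, *Dkk2* by little in replicate 2 while ECs were kept, and *Thy1* differed little. *Thbs1* was at 1958 and 1164 CPM in members of replicates 1 and 2, against 1443 and 705.4 CPM in partners. Members were higher in both libraries, with a log2 fold change of 0.64 ± 0.06 (SE, edgeR, adjusted p = 0.000152). The levels of the libraries overlapped nonetheless, since members of replicate 2 were below partners of replicate 1. The level of *Thbs1* was not particular to members, since contractile non-cycling cells held 2054 and 1030 CPM and *Myh11*-low, non-cycling cells with at least 2 *Sox9* UMIs 1726 and 759.2 CPM. *Dkk2* was at 38.8 and 12.8 CPM in members against 23.0 and 11.5 CPM in partners (log2 fold change 0.64 ± 0.13, edgeR, adjusted p = 0.0115). ECs themselves held 69.0 and 75.9 CPM of *Dkk2*. Without ECs members were at 38.7 and 12.5 CPM against 20.2 and 7.83 CPM in partners, and the change was 0.91 ± 0.11. With ECs the call of *Dkk2* was lost by DESeq2 (adjusted p = 0.451) and with no filter on low counts (adjusted p = 0.0844), and DESeq2 called it without ECs (adjusted p = 0.0201). A UMI of *Dkk2* was found in 24.7% and 9.89% of members and in 16.9% and 7.88% of partners, so that most members had none. *Thy1* was at 438.3 and 215.2 CPM against 418.0 and 177.4 CPM, a log2 fold change of 0.23 ± 0.06 (edgeR, adjusted p = 0.0420) that missed the threshold without ECs (0.19 ± 0.06, adjusted p = 0.168). All 3 markers were detected together in 23.3% and 7.57% of members and in 14.2% and 5.72% of partners.

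Levels that bear on the label of modulated cells were also compared. The 16 contractile genes on the list summed to 13338 and 9106 CPM in members, against 38054 and 37038 CPM in contractile, non-cycling cells. *Lum* (lumican, a proteoglycan of modulated cells) was at 109.6 and 237.8 CPM in members and at 71.5 and 24.3 CPM in contractile cells, and *Pdgfra*, a growth factor receptor of mesenchymal cells, at 117.0 and 127.8 against 45.5 and 15.4 CPM. The calcium-binding protein gene *S100a4* was at 2975 and 3764 against 2060 and 2298 CPM. These values go with the label in both libraries. Limits on *Myh11* chose both members and contractile cells, however, so such differences follow in part from the rule and are no independent support. The same held for the partners, which share the members' limit and had a contractile sum of 11092 and 6269 CPM. Markers of further cell types were low in members: *Ptprc* of leukocytes was at 0.0919 and 0.0908 CPM, and *Sox10* of Schwann cells had no UMI. The macrophage list summed to 53.1 and 48.6 CPM in members and to 45.9 and 75.8 CPM in partners, led by *Lyz2*, and the Schwann list to 24.2 and 28.9 against 23.4 and 36.2 CPM, led by *S100b*. None of the 7 macrophage or 3 Schwann genes tested passed in either direction, which for 10 genes is near the share called over all genes (4.48% higher and 3.82% lower). With the *Sox9* limit and without ECs 2 macrophage genes were lower, where 2.03% of all genes were called lower. Of 4 pericyte genes *Notch3* was higher (0.68 ± 0.17, and 0.61 without ECs at an adjusted p of 0.139) and *Rgs5* lower (-0.49 ± 0.07), and of 10 foam cell and lipid genes *Lgals3* was lower (-0.44 ± 0.07) and *Fabp5* higher (0.19 ± 0.05, and 0.16 without ECs at an adjusted p of 0.123).

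Members held more mRNA of contractile genes than their partners. Of 14 contractile genes tested, 11 were higher in members and none was lower, with a median log2 fold change of 0.44. Without ECs 8 were higher (median 0.40), and with the *Sox9* limit as well 9 (median 0.35), while DESeq2 called 8. Over all genes 4.48% were called higher and 3.82% lower, without ECs 2.37% and 1.09%, and with the *Sox9* limit as well 3.59% and 2.03%. *Acta2*, which encodes α-smooth muscle actin, was at 4215 and 2919 CPM in members against 3291 and 1863 CPM in partners. In both libraries members were higher (log2 fold change 0.56 ± 0.06, edgeR, adjusted p = 0.000312), but far below the 15512 and 16280 CPM of contractile cells. *Tagln* (SM22α) was at 2246 and 1511 CPM against 1844 and 1092 CPM, and *Myl9*, a myosin light chain, at 640.8 and 399.0 against 513.0 and 241.5 CPM. The largest changes were in genes of lower level. The intermediate filament gene *Des* was at 13.8 and 5.99 CPM against 5.36 and 2.45 CPM (log2 fold change 1.41 ± 0.15). Few cells carried it: a UMI of *Des* was found in 7.79% and 3.86% of members and in 4.95% and 2.01% of partners. *Actg2*, the smooth muscle γ-actin, was at 103.9 and 42.1 against 69.0 and 14.5 CPM (0.96 ± 0.15), and its call was lost by DESeq2 (adjusted p = 0.266) and with no filter on low counts (adjusted p = 0.0522). *Myocd*, the coactivator of serum response factor that switches on contractile genes, was at 2.34 and 1.54 against 0.901 and 0.727 CPM (1.34 ± 0.33, adjusted p = 0.0325), a call that was lost without ECs (change 1.21, adjusted p = 0.109) and with the *Sox9* limit as well (0.48). *Smtn* (smoothelin), *Mylk* (myosin light chain kinase) and *Synpo2* did not pass, with log2 fold changes of 0.01, 0.43 and -0.39. Since the rule admits members with 1 *Myh11* UMI, which 13.8% and 8.50% of members and 9.58% and 6.80% of partners had, the comparison was also run with *Myh11* at 0 in both sets. The contractile genes summed to 17937 and 14003 CPM in members with 1 *Myh11* UMI and to 13338 and 9106 CPM in all members. With *Myh11* at 0, 9 of the 14 contractile genes were higher and none was lower (median log2 fold change 0.41), and without ECs as well it was 9 again (median 0.38). *Acta2* changed by 0.51 ± 0.05 and *Actg2* by 0.85 ± 0.12, while *Myocd* missed the threshold (adjusted p = 0.0755). Over all genes 492 were higher and 420 lower.

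**Figure D2:**
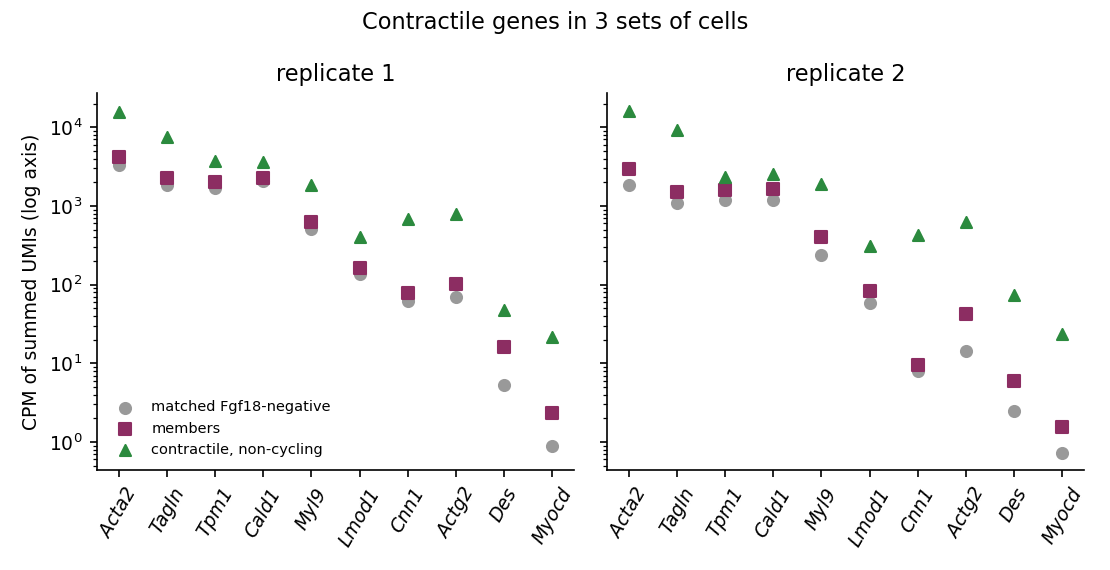
Level (CPM of summed UMIs, log axis) of 10 contractile genes in matched *Fgf18*-negative cells (grey circles), members (purple squares) and contractile, non-cycling cells (green triangles) of replicates 1 and 2, 1 point per set and library. Members of all 10 genes lie above the matched cells and below contractile cells, as for *Acta2* with 4161, 3291 and 15512 CPM in replicate 1, where all 985 members are plotted.

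Contractile genes are known targets of serum response factor, which binds the CArG box. The box was sought in RefSeq promoters of build GRCm38.p6 (250 bases before to 50 after the start) by its strict form, which reads as a box on either strand. It was present in 1.63% of all 32851 promoters and in 1.59% of the 9782 tested genes matched by symbol. Of 570 genes higher in members 431 were matched, and 17 of these held a box (3.94%). Of 485 lower genes 358 were matched, and 3 held one (0.838%). Without ECs it was 13 of 224 higher genes (5.80%) and 1 of 103 lower genes (0.971%). The 17 were *Cnn2*, *Fbxl22*, *Fhl1*, *Fhl2*, *Glipr2*, *Lclat1*, *Lmcd1*, *Meg3*, *Myadm*, *Myl6*, *Myl9*, *Myo1e*, *Myom1*, *Prkab2*, *Rasa4*, *Rsu1* and *Vcl*. Of the contractile list *Myl9* alone was among them. The other contractile genes called higher held no strict box in this window or were not matched, so these shares do not describe that list. The promoter of *Fgf18* held none in this window. The sequences of 4 of the 17, chosen after their values were seen, are printed to show where the box lies, with the box in capitals and 5′ to 3′ on the strand of the gene. They lie at chr2:156775278-156775337 (*Myl9*, plus strand), chr6:112273518-112273577 (*Lmcd1*, plus strand), chr1:43196823-43196882 (*Fhl2*, minus strand) and chr14:20929148-20929205 (*Vcl*, plus strand), and the boxes begin 161, 215, 96 and 227 bases before the start.
Myl9: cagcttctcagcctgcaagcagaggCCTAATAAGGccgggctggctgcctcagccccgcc
Lmcd1: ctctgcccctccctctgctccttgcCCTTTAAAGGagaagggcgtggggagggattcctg
Fhl2: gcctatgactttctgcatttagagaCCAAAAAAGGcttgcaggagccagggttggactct
Vcl: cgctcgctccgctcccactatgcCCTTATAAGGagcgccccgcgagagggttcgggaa
A match describes the sequence and is not evidence of binding. *Lmcd1*, a LIM-domain cofactor, was at 927.5 and 731.3 CPM in members against 523.4 and 466.8 CPM in partners, and *Fhl2*, a LIM-domain protein of the actin cytoskeleton, at 428.9 and 286.9 against 318.7 and 130.9 CPM.

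The 15 genes with the largest increase included genes for secreted proteins of TGF-β family signaling. *Fst* encodes follistatin, which binds activins. It was at 683.0 and 327.2 CPM in members against 399.4 and 164.3 CPM in partners, a log2 fold change of 0.94 ± 0.06 (edgeR, adjusted p = 7.93e-06). *Grem1*, a BMP antagonist, changed less, from 145.4 and 272.1 CPM in partners to 183.3 and 390.2 CPM in members (0.49 ± 0.06). Of all genes 4.48% were called higher and 3.82% lower, and of the 13 genes for BMP antagonists and targets 3 passed, all higher. Those that did not pass included *Id1* (-0.12), *Id2* (-0.01) and *Id3* (0.10), which BMP signaling is known to induce. *Tgfb3*, the ligand TGF-β3, was at 118.6 and 91.4 against 74.8 and 41.0 CPM (0.94 ± 0.09). Of 16 TGF-β genes 3 were higher, *Smad7* (an inhibitory SMAD, 0.26 ± 0.06) among them, and *Ltbp4* was lower (-0.84 ± 0.16), at -0.14 without ECs. *Smad7* missed the threshold without ECs (0.23, adjusted p = 0.0623).

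The remaining genes with the largest increases had various functions. *Elobl* led, at 44.0 and 48.6 CPM in members against 18.1 and 22.5 CPM in partners (log2 fold change 1.27 ± 0.08), without overlap of the groups. *Rcan2* encodes an inhibitor of calcineurin. It was at 153.7 and 114.4 against 80.0 and 50.3 CPM (1.11 ± 0.07), again without overlap. *Itga8*, the integrin α8 subunit of smooth muscle and mesenchyme, was at 46.2 and 49.1 against 22.9 and 24.2 CPM (1.078 ± 0.08). *Cemip*, which encodes a protein that degrades hyaluronan, was at 522.7 and 436.5 against 305.5 and 205.2 CPM (0.99 ± 0.07). *Pcgf5* (a Polycomb group protein, 1.00 ± 0.09), *Cpxm2* (a carboxypeptidase-like protein, 1.25 ± 0.19), *Map3k7cl* (1.15 ± 0.13), *Avpr1a* (the vasopressin receptor of smooth muscle, 0.90 ± 0.13), *Nid2* (a basement membrane protein, 0.87 ± 0.11), *Stc1* (a secreted glycoprotein, 0.85 ± 0.13) and *Rasl11b* (a small GTPase, 0.85 ± 0.08) also belonged to the 15, as did *Actg2*. Some of these rested more on replicate 2. *Cpxm2* was at 29.0 and 21.2 against 16.3 and 5.36 CPM, with log2 ratios of 0.79 in replicate 1 and 1.80 in replicate 2. For *Avpr1a* the ratios were 0.57 and 1.19 and for *Actg2* 0.58 and 1.47. *Stc1* was at 289.8 and 169.8 against 212.7 and 72.6 CPM, with log2 ratios of 0.44 in replicate 1 and 1.21 in replicate 2. Its change was 0.41 without ECs and with the *Sox9* limit, and its call was lost with no filter on low counts (adjusted p = 0.0501) and by DESeq2 without ECs (adjusted p = 0.559). Without ECs, 13 of these 15 were again among the 15 largest, with *Ctla2a* (0.84 ± 0.09) and *Glul* (0.84 ± 0.14) in place of *Stc1* and *Rasl11b*. The change of *Ctla2a* was smaller with the *Sox9* limit as well, and smaller still with no *Myh11* UMI, as given under the processing.

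**Figure D3:**
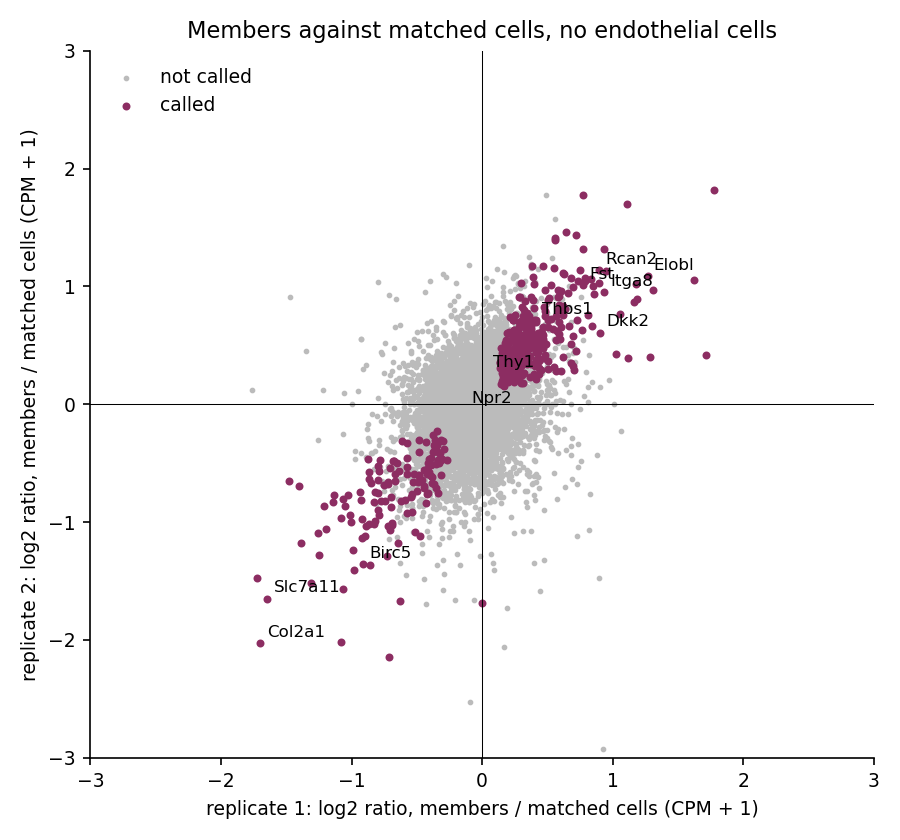
Log2 ratio of members over matched *Fgf18*-negative cells (CPM + 1) in replicate 1 (horizontal) and replicate 2 (vertical) for the 12563 genes tested without ECs, with the 298 higher and 137 lower genes in purple. *Elobl*, *Rcan2*, *Itga8* and *Fst* lie at the upper right, *Slc7a11* and *Col2a1* at the lower left, and *Npr2* near 0.

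The collagen and elastic fiber genes that passed were all higher in members. For the counts below, 4.48% of all genes were called higher and 3.82% lower. Without ECs the shares were 2.37% and 1.09%, and with the *Sox9* limit as well 3.59% and 2.03%. Of 26 collagen and elastic fiber genes 12 were higher and none was lower (median log2 fold change 0.22), without ECs it was 8, and with the *Sox9* limit as well 10, and DESeq2 called 7. The increases were below those of the leading genes: *Col5a1*, a fibril-regulating collagen chain, was at 469.2 and 248.2 CPM in members against 349.4 and 164.1 CPM in partners (0.57 ± 0.06). *Col12a1*, a collagen that binds to fibrils, changed by 0.62 ± 0.10, and the cross-linking enzyme gene *Lox* by 0.49 ± 0.07. *Col1a1*, the main fibril collagen, was at 1549 and 997.4 against 1338 and 770.5 CPM (0.35 ± 0.05). Of 15 matricellular genes 6 were higher, among them *Thbs2* (0.52 ± 0.09) and *Wisp2* (0.37 ± 0.05), and *Sparcl1*, also expressed by ECs, was lower (-0.63 ± 0.15). Without ECs 3 of the 15 were higher. *Thbs2* missed the threshold there (0.46 ± 0.11, adjusted p = 0.0681), *Sparcl1* was at a change of 0.00, and *Postn* (periostin, a matricellular protein) was lower (-0.36 ± 0.07, adjusted p = 0.0495). With the *Sox9* limit as well 6 were higher and 2 lower, and DESeq2 called 2 higher. Of 14 metalloproteinases and inhibitors 3 were higher, *Adamts12* (0.63 ± 0.11), *Adamts1* (0.45 ± 0.06) and *Mmp23* (0.42 ± 0.07), and the gelatinase gene *Mmp2* was lower (-0.35 ± 0.07).

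Of 11 markers of adventitial fibroblasts 5 were higher and 1, *Cd34*, also a gene of ECs, was lower (-1.24 ± 0.11). Among all genes 4.48% were called higher and 3.82% lower, without ECs 2.37% and 1.09%, and with the *Sox9* limit as well 3.59% and 2.03%. The higher markers were *Mfap5* (0.41 ± 0.05), *Lum* (0.40 ± 0.10), *Serpinf1* (0.38 ± 0.08), *Dpt* (0.35 ± 0.09) and *Col14a1* (0.29 ± 0.07). *Dcn* (0.24), *Gsn* (0.17), *Pdgfra* (0.12), *Clec3b* (0.33) and *Pi16* (-0.31) did not pass. Without ECs *Mfap5* alone passed, and with the *Sox9* limit as well 4 were higher and none lower, while DESeq2 called 2 higher and 1 lower. *Lum* was higher mainly in replicate 2 (237.8 against 154.3 CPM) and nearly level in replicate 1 (109.2 against 104.8 CPM). The list summed to 2283 and 2483 CPM in members and to 2109 and 1928 CPM in partners. Its most abundant gene in members was *Mfap5* in replicate 1 and *Dcn* in replicate 2, and no gene of the list was at 0. Modulated SMCs express several of these genes as well, and the part of fibroblasts in the matrix genes was not tested. In sums of cells, a higher level and a larger share of expressing cells cannot be told apart.

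**Figure D4:**
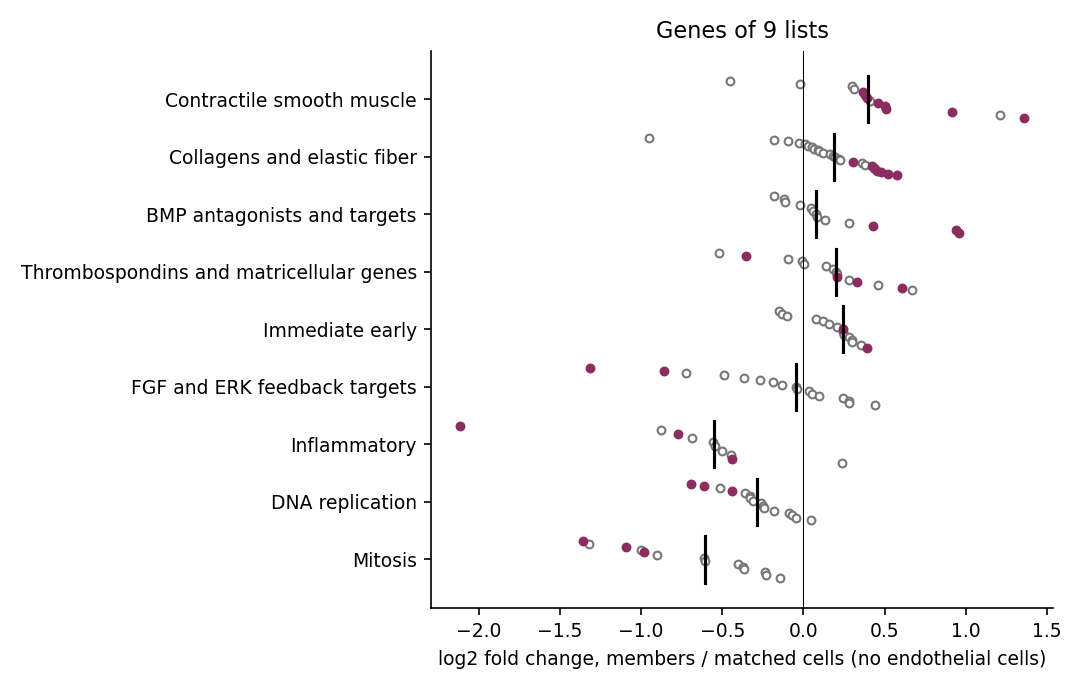
Log2 fold change of members against matched cells without ECs (edgeR) for each tested gene of 9 lists, 1 point per gene, with genes past the threshold filled and the median of each list as a bar. The contractile and collagen lists have 8 filled points each, all above 0, and the mitosis, DNA replication and inflammatory lists have 3 each, all below 0.

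None of the 6 ligand genes tested apart from *Fgf18* passed in either direction (*Fgf7* 0.16, *Fgf2* 0.16, *Fgf10* -0.23, *Fgf13* 0.91, *Fgf11* 0.10 and *Fgf1* 0.12), and *Fgf13*, at 1.93 and 3.63 CPM in members against 1.42 and 1.36 CPM in partners, had an adjusted p of 0.113. At the shares called over all genes a count of 0 among 6 is not a result about the ligands. Among 12 genes for receptors and co-receptors 5 were higher and 2 lower, where 4.48% of all genes were called higher and 3.82% lower. *Fgfr1*, the main FGF receptor of mesenchymal cells, was at 69.9 and 80.2 CPM in members against 90.5 and 106.6 CPM in partners and was lower in both libraries (-0.33 ± 0.06, edgeR, adjusted p = 0.00733), also without ECs. *Fgfr2* (-0.09) and *Fgfr3* (-0.70 at 2.73 CPM or below) did not pass. The heparan sulfate proteoglycan genes *Gpc3* (0.69 ± 0.11), *Gpc6* (0.30 ± 0.06), *Sdc4* (0.26 ± 0.05), *Hspg2* (0.24 ± 0.06) and *Sdc2* (0.23 ± 0.06) were higher, of which *Gpc3* alone passed without ECs and 3 with the *Sox9* limit as well, and *Sdc3* was lower (-0.63 ± 0.13). DESeq2 called 1 of the 12 higher and 0 lower. By edgeR without ECs it was 1 higher and 2 lower, against 2.37% and 1.09% of all genes. With the *Sox9* limit as well 3.59% of all genes were called higher and 2.03% lower.

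Of 17 genes that FGF and ERK signaling is known to induce none passed as higher and 4 were lower, where 4.48% and 3.82% of all genes were called. A count of 0 among 17 is near that share and is not a result about these genes. The lower genes were *Etv1*, an ETS factor (-1.25 ± 0.24, at 4.91 CPM or below), *Dusp4*, an ERK phosphatase (-0.85 ± 0.13), *Fosl1*, an AP-1 subunit (-0.79 ± 0.18) and *Ccnd1*, cyclin D1 (-0.47 ± 0.08). *Etv1* and *Dusp4* passed without ECs as well. The classical inhibitors *Spry1*, *Spry2* and *Spry4* changed by 0.28, 0.05 and 0.35, *Il17rd* (a feedback inhibitor as well) by 0.44 (adjusted p = 0.0727) and *Dusp6* by 0.15, none past the threshold. In the comparison without ECs and with the *Sox9* limit, 1 of the 17, *Spry1* (0.30, adjusted p = 0.0386), was higher and 4 were lower, and DESeq2 called none in either direction. With ECs left out and the *Sox9* limit, edgeR called 3.59% of all genes higher and 2.03% lower.

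In the Wnt pathway, 1 of 9 inhibitors tested passed as higher, *Dkk2*, which had been proposed as a marker of these cells. As 4.48% of all genes were called higher and 3.82% lower, 1 higher among 9 is near that share and is not a result about the inhibitors. *Sost* (0.41) and *Igfbp4* (0.30) did not pass, and *Frzb* (-0.38 ± 0.07) and *Wif1* (-1.22 ± 0.30, at 4.82 CPM or below) were lower. Without ECs *Wif1* missed the threshold at a change of -1.29 (adjusted p = 0.0685). With ECs kept, *Sfrp1* went opposite ways in the libraries, at 489.4 against 634.4 CPM in replicate 1 and at 174.5 against 110.0 CPM in replicate 2 (log2 fold change 0.16 ± 0.17, adjusted p = 0.681). Of 6 genes known as targets of β-catenin, 2 were higher. *Nkd1*, a feedback inhibitor, was at 61.0 and 52.0 CPM in members against 39.3 and 26.1 CPM in partners (0.84 ± 0.09), without overlap of the groups. *Lgr6*, an R-spondin receptor, was at 12.4 and 11.1 against 5.26 and 5.91 CPM (1.17 ± 0.15). *Axin2*, a feedback inhibitor as well, did not pass (log2 fold change -1.80, adjusted p = 0.0715). *Wnt5a* was lower among 7 ligands (-0.48 ± 0.12), and *Fzd5* higher among 14 receptors (0.44 ± 0.10). Without ECs both missed the threshold at similar changes of -0.53 and 0.40 (adjusted p = 0.0684 and 0.0699), and with the *Sox9* limit as well both passed (adjusted p = 0.00573 and 0.00226). DESeq2 called none of the Wnt inhibitors, ligands and receptors. Counts of 1 among 7 ligands and 1 among 14 receptors are near the shares over all genes and are not results about these lists.

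The study was about cGMP, and the genes of this pathway were therefore listed. Natriuretic peptides act through guanylyl cyclases (GC-A, gene *Npr1*, and GC-B, gene *Npr2*) and nitric oxide through the soluble cyclase, and cGMP activates kinases encoded by *Prkg1* and *Prkg2*. *Npr2* was at 36.0 and 51.4 CPM in members against 38.9 and 52.8 CPM in partners, a log2 fold change of -0.02 ± 0.07 that did not pass (edgeR, adjusted p = 0.934) and was of either sign under other settings, and 46.4% and 48.7% of members had a UMI against 48.5% and 51.8% of partners. *Npr1* was at 0.367 and 0.454 against 2.13 and 1.64 CPM and lower (-2.21 ± 0.39), and it fell below the expression filter once ECs were left out. Of 12 genes tested, 4 were higher and 2 lower, where 4.48% of all genes were called higher and 3.82% lower. The phosphodiesterase gene *Pde5a*, whose product degrades cGMP, was at 136.6 and 123.0 against 94.6 and 90.1 CPM (0.55 ± 0.06). *Prkg1*, the kinase of smooth muscle, was at 38.3 and 32.8 against 27.3 and 25.1 CPM (0.51 ± 0.08), and neither gene's groups overlapped, and the phosphodiesterase gene *Pde3a* changed by 0.49 ± 0.09. These 3 passed without ECs, while the clearance receptor gene *Npr3* (0.32 ± 0.08) did not (0.28, adjusted p = 0.131). With the *Sox9* limit as well 4 were higher, and DESeq2 called 2. Over all genes 2.37% were called higher by edgeR without ECs and 3.59% with the *Sox9* limit as well. *Prkg2* was lower (-0.77 ± 0.19, at 7.35 CPM or below) and missed the threshold without ECs (-0.84, adjusted p = 0.0538). The genes of the soluble cyclase, *Gucy1a1* (0.31) and *Gucy1b1* (0.27), did not pass.

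*Slc7a11*, the cystine and glutamate exchanger, was at 4.27 and 5.18 CPM in members against 21.4 and 24.4 CPM in partners (log2 fold change -2.23 ± 0.13, edgeR), and without ECs it was -1.80 ± 0.13. A UMI was found in 8% and 4.02% of members and in 18.0% and 10.8% of partners. The 12 lowest genes with ECs included *Nts*, *Pecam1*, *Egfl7*, *Procr*, *Slc7a11*, *Ctla2a*, *Cd34*, *Ecscr*, *Asap2*, *Ccl2* and *Nav3*, and most are genes of ECs. *Ctla2a* turned to 0.84 and *Ecscr* to 0.47 without them. Of the genes lowest without ECs, chosen after the ECs had been seen, *Angptl2* (a secreted angiopoietin-like protein, -0.85 ± 0.12), *Gsta4* (a glutathione transferase, -0.74 ± 0.08), *Vcan* (the proteoglycan versican, -0.70 ± 0.07) and *Nav3* (-0.92 ± 0.10) did not belong to the cell cycle. *Gclc* (-0.68 ± 0.08) and *Gclm* (-0.54 ± 0.09), the subunits of the enzyme that starts glutathione synthesis, and *Hmox1*, heme oxygenase-1 (-0.53 ± 0.07), also passed without ECs and were named after their values were seen.

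Of 11 inflammatory genes tested 7 were lower and 1 higher (median log2 fold change -0.50), and without ECs 3 of 10 were lower and none higher. Among all genes 3.82% were called lower and 4.48% higher, without ECs 1.09% and 2.37%, and with the *Sox9* limit as well 2.03% and 3.59%. The chemokine genes *Cxcl5* (1.52 and 1.45 CPM against 7.30 and 4.18, -1.96 ± 0.25), *Cxcl1* (22.0 and 4.27 against 34.4 and 10.5, -0.73 ± 0.14) and *Ccl7* (31.2 and 26.9 against 46.4 and 33.8, -0.41 ± 0.08) passed in both comparisons. *Ccl2* (-0.89 ± 0.19), *Il6* (-0.51 ± 0.13) and *Ptgs2* (-0.46 ± 0.12) missed the threshold without ECs at similar changes of -0.88, -0.56 and -0.45 (adjusted p of 0.0746, 0.0684 and 0.133). The log2 ratio of *Ccl2* was -0.46 in replicate 1 and -1.52 in replicate 2. With the *Sox9* limit as well *Ccl2* and *Ptgs2* passed (adjusted p = 2.76e-05 and 0.0213) and *Il6* did not (0.162), and 6 of 10 genes were lower. DESeq2 called 1 gene lower and 1 higher. *Lcn2* had no UMI in members, at 1.56 and 0.727 CPM in partners. *Cxcl12*, a chemokine of stromal cells, went the other way (2262 and 2278 against 2122 and 1767 CPM, 0.29 ± 0.06) and missed the threshold without ECs (0.24, adjusted p = 0.0831). *Il1rn*, the antagonist of the interleukin-1 receptor, differed between libraries, at 36.0 against 67.3 CPM in replicate 1 and at 10.9 against 6.999 CPM in replicate 2.

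Some genes of cell division were lower in members, where cells with 3 or more UMIs of the cycle genes had been left out of both sets. Of 14 mitosis genes 6 were lower (median log2 fold change -0.49), and of 16 DNA replication genes 4 were (median -0.29), and none of either was higher. Without ECs it was 3 and 3, and with the *Sox9* limit as well 9 and 3. DESeq2 called 3 mitosis genes and 0 DNA replication genes. The share of all genes called lower by edgeR was 3.82%, 1.09% without ECs and 2.03% with the *Sox9* limit as well. *Birc5* (survivin, of the chromosomal passenger complex) was at 12.7 and 7.81 CPM in members against 24.7 and 19.5 CPM in partners (-1.02 ± 0.12), and *Ccnb2*, a mitotic cyclin, at 16.9 and 10.3 against 35.04 and 18.8 CPM (-0.93 ± 0.10). *Hmmr* (-1.25 ± 0.14) and the thymidylate synthase gene *Tyms* (-0.58 ± 0.09) were lower too. Of 7 genes for CDK inhibitors, *Cdkn1a* (p21) was higher (0.30 ± 0.06) and *Cdkn1c* was lower (-0.76 ± 0.18). The change of *Cdkn1c* was -0.29 without ECs (edgeR, adjusted p = 0.645), and DESeq2 called none of the 7. The limit on the cycle genes truncates the genes it counts and those that vary with them, and with all 3 at 0 in both sets 3 of 13 mitosis genes (median -0.27) and 1 of 16 DNA replication genes (median -0.23) were lower.

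Immediate early genes, which also respond to cell dissociation, were higher in 8 of 15 cases, where 4.48% of all genes were called higher and 3.82% lower. Without ECs these shares were 2.37% and 1.09%, and with the *Sox9* limit as well 3.59% and 2.03%. DESeq2 called 177 of 12711 genes higher and 121 lower. Among the 8 were *Dusp1* (0.40 ± 0.06), *Fosb* (0.34 ± 0.07), *Fos* (0.29 ± 0.08) and *Junb* (0.28 ± 0.06). Without ECs 2 of them passed, *Dusp1* and *Btg2*. With the *Sox9* limit as well 2 genes were higher, *Dusp1* and *Hspa1a*, and *Jun* was lower (-0.22), and DESeq2 called 1 gene higher. Of 20 YAP and TEAD targets 7 were higher, with *Amotl2* (0.47 ± 0.06) and *Lats2* (0.40 ± 0.07) as the largest increases, and *Gadd45a* was lower (-1.02 ± 0.13), at -0.55 without ECs (adjusted p = 0.164). Without ECs 4 were higher, with the *Sox9* limit as well 7, not all of them the same genes, and DESeq2 called 2. The mitochondrial share was alike, with medians of 3.75% and 5.10% in members and 3.76% and 5.20% in partners. Of the chondrocyte list, *Col2a1*, the cartilage collagen and a known target of SOX9, was at 0.689 and 8.72 CPM in members against 4.46 and 37.3 CPM in partners (-2.17 ± 0.16). The rule limits *Sox9* in members only, and with the same limit on partners, without ECs, the change was -1.11 (-2.22 without ECs alone). *Sox5*, a partner of SOX9, was higher (0.44 ± 0.11), at 0.42 without ECs (adjusted p = 0.0726). Of 16 genes of heart and neural crest patterning 3 were higher, *Tcf21* (0.60 ± 0.15), *Prrx1* (0.29 ± 0.05) and *Foxc1* (0.27 ± 0.06), of which *Prrx1* alone passed without ECs. With the *Sox9* limit as well *Tcf21* passed (0.58, edgeR, adjusted p = 0.0193), *Prrx1* did not (0.14, adjusted p = 0.243), and 3 of 14 genes were lower. *Tfap2b*, a transcription factor of neural crest, was lower and was found in replicate 2 only, at 2.09 against 8.82 CPM. DESeq2 called none of the 16. Of 10 osteogenic genes *Dlx5* (-1.34 ± 0.29) and *Ank* (-0.57 ± 0.08) were lower by edgeR, and DESeq2 called none. Without ECs *Dlx5* missed the threshold at a change of -1.31 (adjusted p = 0.0690). None of 25 *Hox* genes passed in either direction (edgeR), with a median log2 fold change of 0.19, and with the *Sox9* limit and without ECs 1 was higher. At the shares called over all genes (4.48% and 3.82%) such a count is near the background. In the mesenchymal list *Itga8*, *Thy1* and *Pdgfrb* were higher and *Mcam*, *Cd34* and *Vcam1* lower, and only *Itga8* and *Vcam1* (-0.52 ± 0.08) passed without ECs.

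Several levels followed the number of *Fgf18* UMIs. The levels below are a description by the count that chose the members, and for cells without *Fgf18* they are from partners without ECs and with at most 1 *Sox9* UMI. *Thbs1* was at 1489, 1718, 1794 and 2162 CPM in cells with 0, 1, 2 and at least 3 UMIs of *Fgf18* in replicate 1 and at 679.6, 1020, 1020 and 1379 CPM in replicate 2. It thus rose or stayed level at each step in both libraries. *Rcan2* went from 88.6 over 121.3 and 135.2 to 176.4 CPM in replicate 1 and from 63.3 over 99.9 and 125.1 to 123.8 CPM in replicate 2. *Slc7a11* fell from 14.8 over 6.06 and 6.53 to 2.67 CPM and from 16.3 over 7.62 and 7.06 to 1.81 CPM. *Dkk2* was at 22.5, 29.8, 28.3 and 46.2 CPM in replicate 1. In replicate 2 it was at 11.3, 8.74, 7.998 and 19.2 CPM, so that the cells with 1 or 2 UMIs of *Fgf18* were below those without it. *Npr2* showed no such order. The depth was not equal over these cells, with medians of 19905, 18776, 20072 and 22551 UMIs in replicate 1 and 14281, 13926, 14694 and 17212 UMIs in replicate 2. With members held to at least 2 UMIs and matched again, 383 genes were higher and 314 lower.

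**Figure D5:**
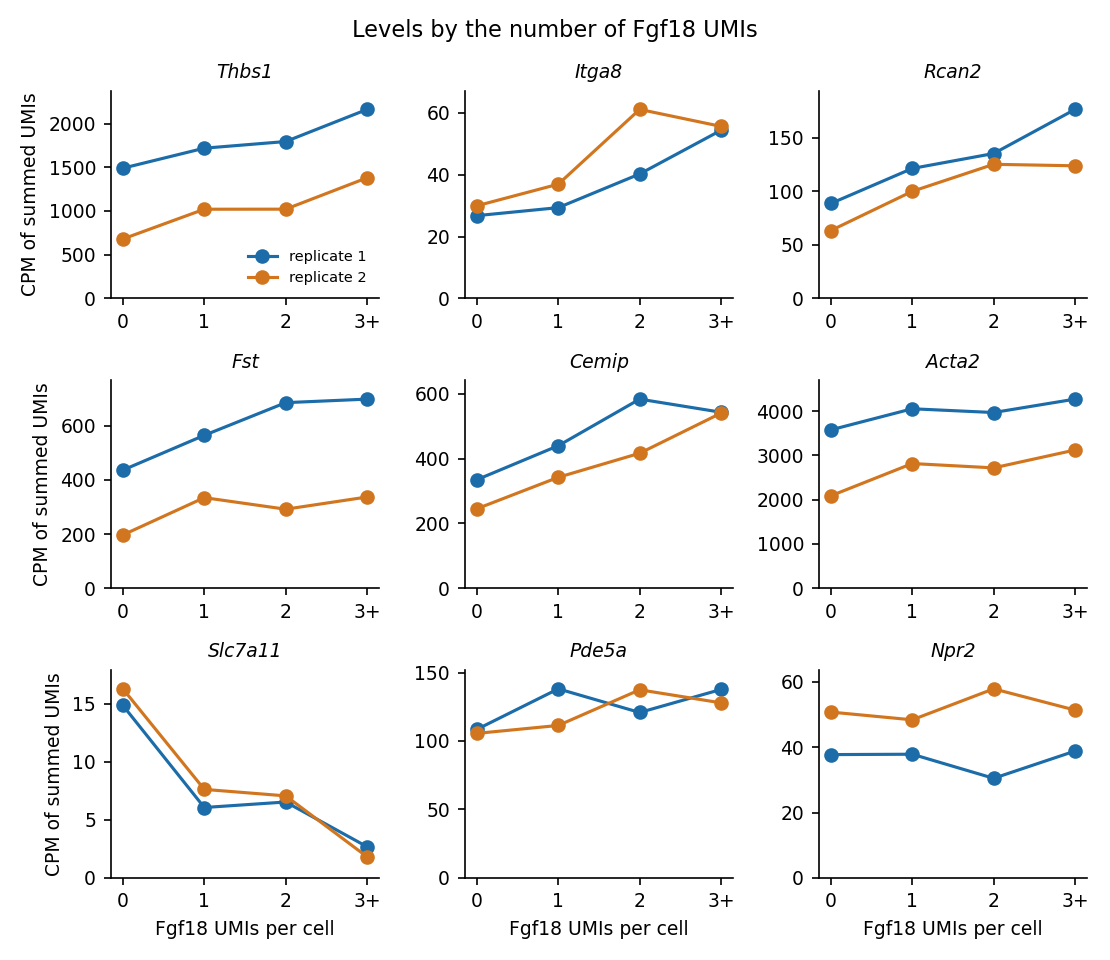
Level (CPM of summed UMIs) of 9 genes in cells with 0, 1, 2 and 3 or more *Fgf18* UMIs, in replicate 1 (blue) and replicate 2 (orange), where 0 stands for matched cells without ECs and with at most 1 *Sox9* UMI. *Thbs1* is highest at 3 or more (2162 and 1379 CPM) and *Slc7a11* lowest there (2.67 and 1.81 CPM).

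Levels just outside and just inside the other limits of the rule are given as a description. Cells with *Fgf18* and 2 *Myh11* UMIs (56 and 17 cells) had a contractile sum of 24233 and 28300 CPM, against 17937 and 14003 CPM in members with 1 *Myh11* UMI (136 and 55 cells). Cells with 2 *Sox9* UMIs (79 and 45 cells) had 1951 and 995.6 CPM of *Thbs1*, against 1829 and 1061 CPM in members with 1 (163 and 113 cells). Cells with a summed cycle count of 3 (30 and 9 cells) had 1696 and 1242 CPM of *Thbs1*, against 1696 and 771.1 CPM in members with 2 (66 and 31 cells).

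Among the *Myh11*-low, non-cycling cells without ECs, members lay near other members more often than the remaining cells did. Of the 20 nearest neighbors of a member, by principal components of variable genes without those of the rule, 53.4% and 31.4% on average were members themselves, while for other cells it was 34.0% and 12.9%. Members made up 38.8% and 16.8% of these cells (981 of 2528 and 646 of 3851, without ECs). The cells were not matched on depth. With ECs kept, median depth was 20838 and 15027 UMIs in members and 17864.5 and 14014 UMIs in cells without *Fgf18*. The other cells included 445 and 1102 cells with at least 2 *Sox9* UMIs, which the rule bars. What part these have in the neighbor shares was not tested. In replicate 1, 52.5% of members had a majority of members around them, and in replicate 2 it was 13.5%. The genes whose level per cell followed *Fgf18* most closely were *Rcan2* (mean Pearson r of 0.26 over the libraries), *Pcgf5* (0.25), *Thbs1* (0.25), *Lmcd1* (0.25), *2310022B05Rik* (0.24), *Vegfd* (0.24), *Myo10* (0.24), *Lbh* (0.24), *Cemip* (0.24) and *Mtss1* (0.23), out of 9891 genes. These correlations are weak, they are across cells of the same library that share its depth and free RNA, and they describe the same cells as the comparison above.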

How the data were processed

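The authors aligned the reads with Cell Ranger (3.0.2 per the submitters' notes, 3.0.2 and 3.1.0 in the matrix headers of replicates 1 and 2) to mm10, and deposited a raw UMI count for each of 31053 genes in each barcode, without normalization or selection of cells. Here cells and members were selected as described, and no doublet caller was run. Members and gene lists were chosen with earlier results of these data known. Each member, deepest first, was matched without reuse to the nearest cell within 10% of its total UMIs. Sums of counts of the main comparison came to 21773551 and 21087662 UMIs (replicate 1) and 11009858 and 11001525 UMIs (replicate 2). They were tested by the quasi-likelihood test of edgeR 4.0.16 (with TMM and filterByExpr) with the library as a replicate block. Same-numbered sums come from the same culture, and their deviations correlated at 0.765 over 12711 genes. DESeq2 was an alternative. TMM shifted log2 ratios by 0.07 and 0.04. Standard errors were taken as the ratio of fold change (log2) to the root of F. On simulated data for this comparison (12703 genes), 71% of 100 genes changed by 0.5 on the log2 scale and 98% of 100 changed by 1 were recovered, with 3.43% false calls. The changed genes were drawn only from genes above a minimum mean count, and all genes were given the same dispersion (0.0030). These rates therefore do not cover genes of a few CPM or genes that vary more. The genes named are the 3 markers, the 15 highest and 12 lowest log2 fold changes among genes past the threshold, with the same direction in both libraries and at least 20 CPM in the higher set of each, up to 4 genes per list past the threshold with further members for context, the cGMP genes and the 10 genes most correlated with *Fgf18*. Gene coordinates are from GENCODE M21 of GRCm38, which held 30934 of the gene identifiers. No column of the deposited matrices was left out. Some genes that this rule selects are not reported here.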

Additional observations from a re-analysis of the deposited data

How the results depend on the processing

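Without the replicate block 0 genes were higher and 0 lower, with or without ECs (523 and 312 at an unadjusted p under 0.05, edgeR), since the difference between the libraries then enters the error. DESeq2 called 177 higher and 121 lower, and 135 and 41 without ECs. No filter on low counts left 242 and 234 of 16488 genes. Leaving out ECs, an alternative added after seeing the data, gave 298 and 137, with no *Myh11* UMI as well 359 and 153, and with at most 1 *Sox9* UMI in partners 253 lower. With at least 2 or 3 *Fgf18* UMIs 314 and 318 were lower. All other alternatives gave counts within 1.5 times of 570 and 485. The share of members was 14.9%, ranging from 9.48% to 20.2% when a library was left out, and 5.78% after *Fgf18* was thinned to 3000 UMIs per cell. Gene counts could not be refitted without a replicate, since no residual degrees of freedom remain.

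Of 41 named genes, 40 lost their call without the block. *Npr2*, not called, changed sign to 0.035 unmatched, 0.090 with the *Sox9* limit in partners, 0.051 with that limit without ECs, 0.0065 without *Myh11*, 0.033 without cycle UMIs and 0.015 without the deepest cells. Without ECs *Egfl7* was at 0.036 with the *Sox9* limit. *Ctla2a* was at 0.84 (0.85 without the block, 0.87 by DESeq2, 0.55 with the *Sox9* limit, 0.28 without *Myh11*), and *Ecscr* at 0.47 (0.46, 0.53, 0.40 and 0.44). None of the 41 changed sign when a library was left out, whereas genes given from the lists, such as *Il1rn*, *Sfrp1*, *Fgf2* and *Fgf10*, went opposite ways in the libraries. Depth limits genes of a few CPM, in which single libraries hold few UMIs.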

Other observations

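Receptors of vasoactive ligands were not on a list and were looked up after their values had been seen. Without ECs, *Avpr1a* (vasopressin, 31.2 and 24.8 CPM in members against 20.96 and 10.6 CPM in partners, log2 fold change 0.86 ± 0.14), *Ramp1* (a subunit of the CGRP receptor, 11.2 and 3.55 against 4.64 and 2.46 CPM, 1.14 ± 0.20), *Adora2a* (adenosine, 1.14 ± 0.18), *Agtr1a* (angiotensin II, 1.11 ± 0.23) and *Htr2a* (serotonin, 0.91 ± 0.16) were higher past the threshold (edgeR). *Calcrl*, the partner of RAMP1 in the CGRP receptor, was lower (10.2 and 12.5 against 17.2 and 26.1 CPM, -0.84 ± 0.12). The other 8 of 14 did not pass. They were *Agtr2* (1.78, adjusted p = 0.0684), *Vipr2* (1.03, adjusted p = 0.0765), *Ptger4* (-1.03, adjusted p = 0.139), *S1pr3* (-0.43), *Ednra* (-0.21), *S1pr1* (0.10), *Lpar1* (0.02) and *Ptgir* (-0.00). Most of these genes were under 12 CPM, and the genes were picked for their function by hand, so that their number says nothing about receptors in general.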
